A study of Mus musculus with 6 samples.

Results

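The Hoxa cluster genes described here are Hoxa2, Hoxa3, Hoxa4, Hoxa5, Hoxa7, Hoxa9, Hoxa10 and Hoxa11, which encode homeodomain transcription factors and lie in the same cluster on one mouse chromosome. Probe sets were taken where the platform annotation named exactly 1 gene and that gene was one of these, which gave 15 probe sets for 8 genes, out of 45037 probe sets and 18193 named genes in all. Both groups were cells sorted from mouse bone marrow and held MLL-AF9, the product of a chromosomal fusion found in acute leukaemias. One group had an intact Mn1 gene (MLL-AF9/Mn1wt, n = 3) and the other had Mn1, which encodes a transcriptional cofactor, deleted with CRISPR-Cas9 (MLL-AF9/Mn1null, n = 3). Per the labels, cells of both groups were transduced with an EGFP vector that is called a control, and grew in medium with 15% serum, interleukin 3, interleukin 6 and stem cell factor. Neither the mouse strain and age nor whether a group is a single clone is given in the sources used here. Whether the replicates were separate cultures or animals is not labelled, and p-values therefore cover only the spread among these arrays, which may be technical.

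HOX proteins bind DNA through a homeodomain, mostly together with MEIS and PBX proteins, which are homeodomain cofactors of another class. In blood formation the Hoxa genes are active in stem and progenitor cells and are switched off as cells mature. The MLL protein keeps the cluster active, Polycomb complexes silence it, and MLL fusions such as MLL-AF9 are known for holding Hoxa9, its neighbours and Meis1 on in leukaemia. The comparison of Mn1null with Mn1wt asks how the transcripts of such cells differ once Mn1 is deleted.

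The stretches of 250 bases before the RefSeq start of 4 genes (build GRCm38.p6, 5′ to 3′) are shown because these genes stand for the different results that follow. They are Hoxa5 with the largest fall, Hoxa9 with a small fall at high signal, Hoxa11 with a rise, and Hoxa2 with a small fall at low signal. Capitals mark matches, on either strand, to TGACAG (a core bound by MEIS proteins), TGATNNAT (a PBX-HOX type core), TAATTA (a homeodomain core), TATAAA (the TATA box) and CCAAT.

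Hoxa2 (chr6:52164832-52165081, minus strand): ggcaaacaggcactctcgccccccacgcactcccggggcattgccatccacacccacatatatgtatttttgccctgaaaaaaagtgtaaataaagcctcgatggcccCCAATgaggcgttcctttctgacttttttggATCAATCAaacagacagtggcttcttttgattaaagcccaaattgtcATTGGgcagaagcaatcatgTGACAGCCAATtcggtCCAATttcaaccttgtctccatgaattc

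Hoxa5 (chr6:52204588-52204837, minus strand): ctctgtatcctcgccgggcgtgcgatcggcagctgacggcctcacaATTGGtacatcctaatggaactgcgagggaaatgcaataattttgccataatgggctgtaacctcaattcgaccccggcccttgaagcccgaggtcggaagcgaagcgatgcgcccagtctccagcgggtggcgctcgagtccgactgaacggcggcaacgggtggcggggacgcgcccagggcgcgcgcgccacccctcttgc

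Hoxa9 (chr6:52227371-52227620, minus strand): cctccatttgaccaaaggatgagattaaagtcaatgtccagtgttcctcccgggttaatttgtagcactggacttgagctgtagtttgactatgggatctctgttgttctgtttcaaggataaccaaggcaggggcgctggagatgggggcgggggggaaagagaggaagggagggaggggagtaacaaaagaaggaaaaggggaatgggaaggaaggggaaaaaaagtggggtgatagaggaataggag

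Hoxa11 (chr6:52245811-52246060, minus strand): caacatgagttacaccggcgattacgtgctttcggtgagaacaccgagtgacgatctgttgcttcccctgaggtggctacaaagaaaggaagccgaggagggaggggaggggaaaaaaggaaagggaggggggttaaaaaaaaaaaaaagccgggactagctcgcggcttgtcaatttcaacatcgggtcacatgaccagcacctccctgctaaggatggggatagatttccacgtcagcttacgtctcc

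The promoter table held 8 such stretches for 7 of the 8 genes, with a pair of start sites for Hoxa10. TGACAG was found in 2 of the 8 stretches (Hoxa2 and Hoxa3) and in 15.9% of all 32851 stretches of that length, and TGATNNAT in 1 (Hoxa2) against 7.68%. CCAAT was found in 3 of 8 against 33.8% of all, TATAAA in 1 (at a start of Hoxa10) against 12.4%, and TAATTA in 0 against 4.84%. In the Hoxa2 stretch TGACAG is followed directly by a CCAAT, with no overlap. The Hoxa5 stretch held 28 CG dinucleotides, more than 92.4% of all stretches, whereas Hoxa9 held 3 and Hoxa11 held 13, around an overall median of 6. The matches describe these letters only and do not show binding.

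In the cluster as a whole, 4 of 8 genes fell in Mn1null (Hoxa2, Hoxa5, Hoxa7 and Hoxa9), 1 rose (Hoxa11) and 3 did not pass (Hoxa3, Hoxa4 and Hoxa10). Each gene was read on its probe set with the highest mean and tested with limma, adjusted by the Benjamini-Hochberg method over 14677 genes at a threshold of 0.05. In that test 48.8% of all genes passed, 25.6% lower and 23.2% higher, so the 62.5% of Hoxa genes that passed is not far from the background. A call with at least a 2-fold difference was made for 2 of the 8 (Hoxa5 and Hoxa11) and for 6.08% of all genes. Over probe sets, 6 of the 15 passed (27.8% of all probe sets did) and 8 had groups that did not overlap (41.1% of all). The median difference of the 8 genes was -0.27 on the log2 scale, beside -0.0054 over all genes tested. The median size of the difference, whatever its sign, was 0.31 for the Hoxa genes and 0.19 for all genes. The groups did not overlap for 6 of the 8 genes and for 57.7% of all genes.

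**Figure D1:**
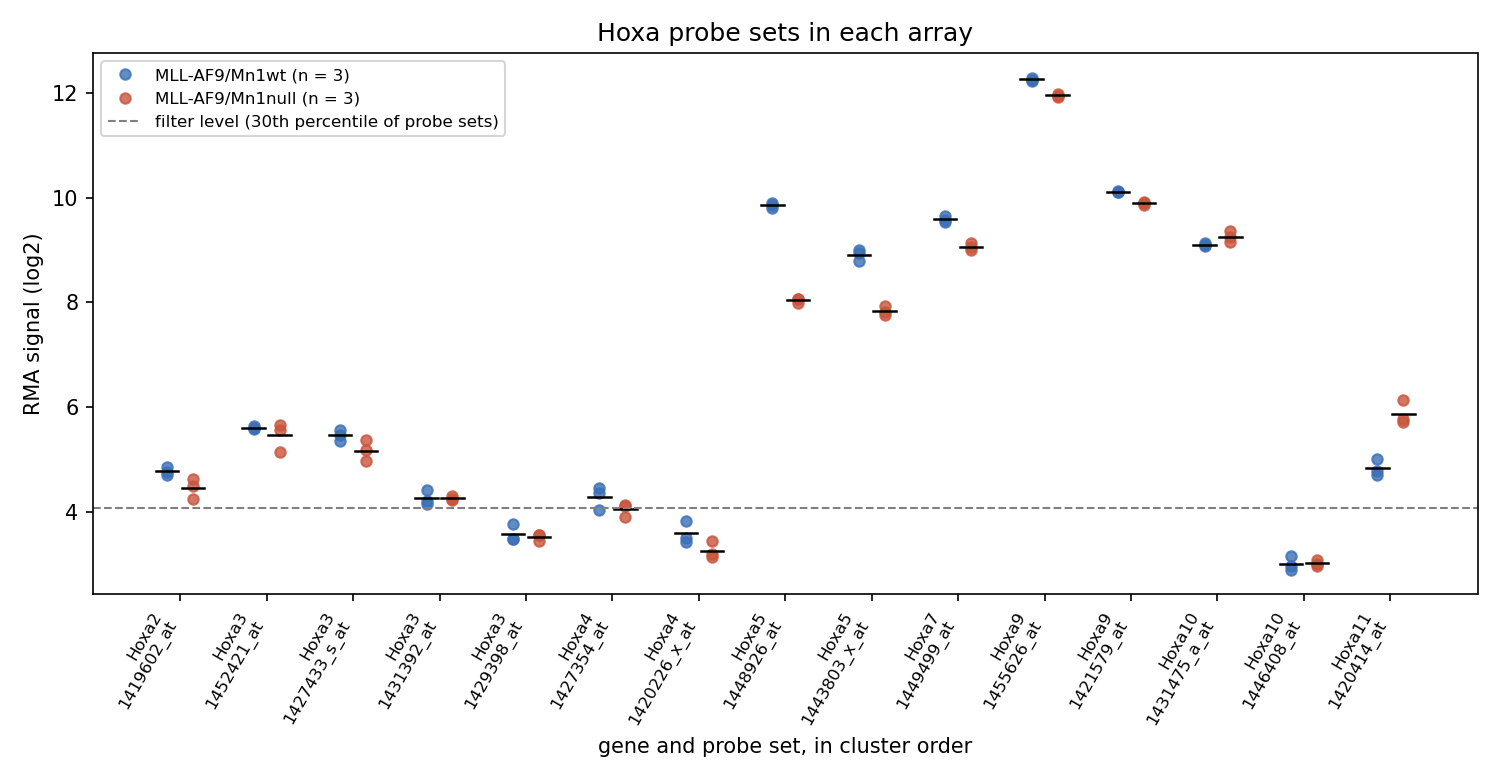
RMA signal (log2, vertical axis) of the 15 Hoxa probe sets in each of the 3 Mn1wt (blue) and 3 Mn1null (red) arrays, in cluster order, with group means as bars and the filter level as a dashed line. The probe sets of Hoxa5 show the widest gap between the groups, 3 probe sets lie under the filter level of 4.07, and signals of different probe sets are not comparable with each other.

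Values are RMA signals on the log2 scale, in which low signals are compressed. The 30th percentile of probe set means, 4.07, served as the filter level, and the median over all probe sets was 5.21. All 8 genes passed the filter through their mean over both groups, 3 of them (Hoxa2, Hoxa4 and Hoxa11) with a Mn1wt mean under that median. The Mn1null mean of Hoxa4 (4.05) lay under the filter level, so Hoxa4 was kept through its higher Mn1wt mean (4.28). Of the 15 probe sets, 3 lay under the filter level.

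At the 3′ end of the cluster, Hoxa2 and Hoxa4 had signals under the overall median of 5.21 in both groups. The Hoxa3 probe set used had means a little above it, 5.61 in Mn1wt and 5.46 in Mn1null. Another Hoxa3 probe set, 1427433_s_at, had a Mn1null mean of 5.17, and the remaining pair lay under the median in both groups. Hoxa2, Hoxa3 and Hoxa4 act in patterning of the hindbrain, pharyngeal arches and anterior body axis. Hoxa2 read 4.85, 4.77 and 4.71 in Mn1wt and 4.24, 4.63 and 4.50 in Mn1null. The Mn1null arrays were all lower, with no overlap, and spread more widely. The difference was -0.32 ± 0.10 (SE; limma adjusted p = 0.0348), and over the 15 alternatives the adjusted p ranged from 0.0156 to 0.102 in the 14 that kept the gene. The call ended when Mn1wt replicate 1 (0.102), Mn1wt replicate 2 (0.0779), Mn1null replicate 1 (0.0592) or Mn1null replicate 3 (0.0686) was left out, and in the test over all 45037 probe sets (adjusted p = 0.0579).

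Hoxa3 was read by 4 probe sets, and limma called 0 of them over all probe sets, while 1 (1427433_s_at) had a 95% interval that left out 0. The one with the highest mean (1452421_at) read 5.58, 5.60 and 5.65 in Mn1wt and 5.14, 5.67 and 5.57 in Mn1null, so the groups overlapped and Mn1null replicate 1 alone was low. The difference was -0.15 (95% interval -0.46 to 0.16; limma adjusted p = 0.389) and turned to 0.0071 without that array. A second probe set drawn from the same source sequence (1427433_s_at) differed by -0.30 (95% interval -0.55 to -0.039; limma adjusted p = 0.0898). It passed without Mn1null replicate 3 (-0.39, adjusted p = 0.0323) and was -0.20 without Mn1null replicate 1 (adjusted p = 0.224). The remaining pair differed by -0.0001 and -0.0594, at signals of 4.26 and 3.58 in Mn1wt. In RefSeq the gene model of Hoxa3 overlaps those of Hoxa4, Hoxa5 and Hoxa6, and whether any probe set reads such shared transcripts was not tested.

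Hoxa4 read 4.45, 4.03 and 4.36 in Mn1wt and 4.13, 3.90 and 4.11 in Mn1null. The groups overlapped at the filter level, with Mn1wt replicate 2 among the Mn1null values. The difference was -0.23 (95% interval -0.52 to 0.054; limma adjusted p = 0.159). Without Mn1wt replicate 2 it was -0.36 and passed (adjusted p = 0.0177), and without Mn1wt replicate 1 it was -0.15 (adjusted p = 0.388). The other probe set, 1420226_x_at, whose suffix marks possible matches to other transcripts, differed by -0.33 at a signal under the filter level (adjusted p = 0.0951).

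Hoxa5 fell most of the 8 genes. The gene is known for patterning of the neck and lung and for roles in the choice between myeloid and erythroid fate. It read 9.89, 9.81 and 9.86 in Mn1wt and 8.06, 7.99 and 8.07 in Mn1null. The 3 arrays of each group lay close together and far from the other group. Hoxa5 fell by 1.81 on the log2 scale, or 3.50-fold (SE 0.048; limma adjusted p = 5.52e-07), and a larger fall was measured in 116 of the 14677 genes tested (0.79%). The second probe set, 1443803_x_at, read 8.99, 8.78 and 8.94 in Mn1wt and 7.93, 7.76 and 7.82 in Mn1null, again without overlap. Its difference was -1.07, or 2.10-fold (SE 0.079; limma adjusted p = 6.03e-05 over all probe sets). This second probe set carries the same suffix for possible matches to other transcripts as that of Hoxa4. Both probe sets were lower in Mn1null, by different amounts, with -1.44 for their mean.

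Hoxa7, the next gene with a named probe set, fell by less. It read 9.54, 9.58 and 9.65 in Mn1wt and 9.06, 9.13 and 9.004 in Mn1null. All Mn1null values lay under all Mn1wt values. The difference was -0.52 ± 0.054 (SE), 1.44-fold (limma adjusted p = 0.000219), and a larger fall was seen in 1178 genes (8.03%).

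Hoxa9, the member best known as a driver of MLL-fusion leukaemia, fell slightly at a high signal. It read 12.25, 12.23 and 12.29 in Mn1wt and 11.93, 11.94 and 11.98 in Mn1null. The groups were tight and did not overlap. The difference of -0.31 ± 0.044 (SE), 1.24-fold (limma adjusted p = 0.0011), is of a size that 17.1% of all genes exceeded downward. The second probe set, 1421579_at, read 10.10, 10.12 and 10.11 in Mn1wt and 9.92, 9.89 and 9.86 in Mn1null. It differed by -0.22 without overlap (limma adjusted p = 0.0221 over all probe sets), and its adjusted p was between 0.0504 and 0.068 whichever single array was left out and 0.0593 with the replicate number as a block, so that its call ended in each case.

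The 5 genes whose centred values over the 6 arrays lay nearest to those of Hoxa9, by root mean square distance, were Hmox2 (0.010), Atp5g1 (0.0109), Cdk7 (0.0146), Med8 (0.0151) and Uhrf1bp1 (0.0153). Their differences lay between -0.33 and -0.29. Since the groups set most of this pattern, the likeness is a description only.

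Hoxa10, which neighbours Hoxa9 and also acts in blood progenitors, did not fall. It read 9.08, 9.13 and 9.10 in Mn1wt and 9.35, 9.24 and 9.15 in Mn1null. The Mn1null arrays were all higher, though by little for replicate 3. At 0.15 (95% interval 0.0012 to 0.29) the difference missed the threshold in limma (adjusted p = 0.0895), and it passed without Mn1null replicate 3 (0.19, adjusted p = 0.038) and with an intensity trend and robust variances (adjusted p = 0.028). Without Mn1null replicate 1 the difference was 0.0943 (adjusted p = 0.248), and for the mean of both probe sets it was 0.0798 (adjusted p = 0.26). The second probe set, 1446408_at, lay near 3.01 in both groups, under the filter level, and differed by 0.014.

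Hoxa11, a gene of limb, kidney and reproductive tract development at the 5′ end, rose from a low signal. It read 5.02, 4.78 and 4.71 in Mn1wt and 5.71, 5.77 and 6.13 in Mn1null. All Mn1null values lay above all Mn1wt values, and above the overall median of 5.21 that the Mn1wt values stayed under. The rise of 1.04 ± 0.13 (SE), 2.05-fold (limma adjusted p = 0.00053), was exceeded by 510 genes (3.47%). It rests on 1 probe set.

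**Figure D2:**
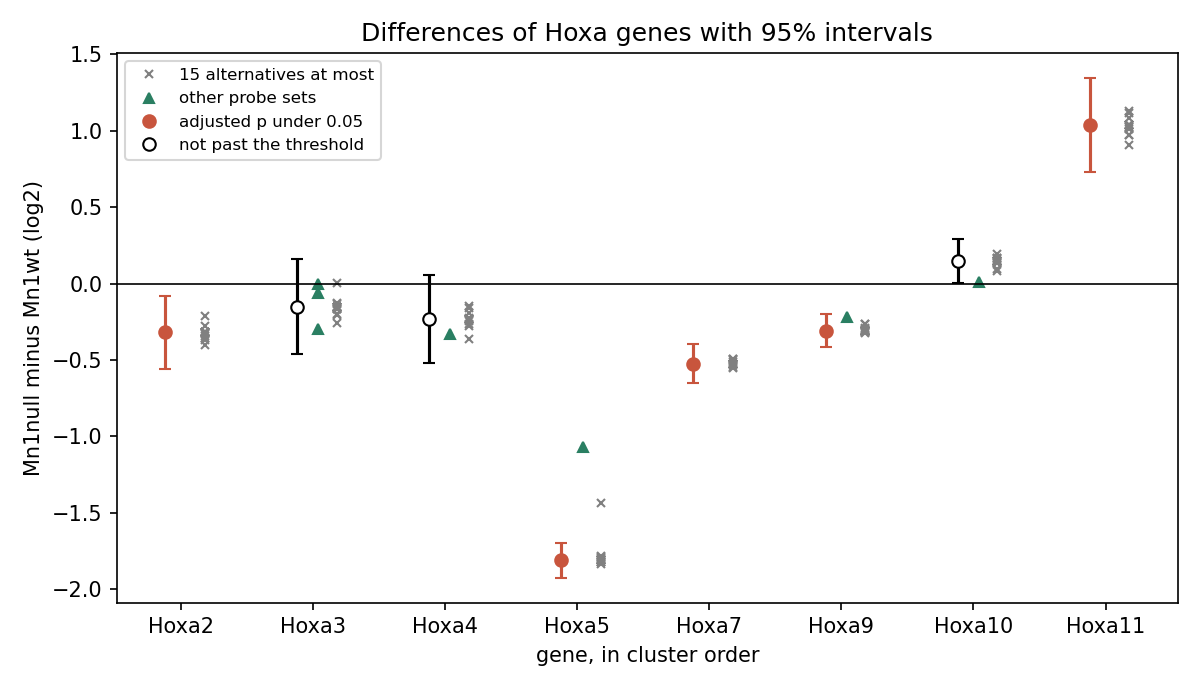
Difference of Mn1null minus Mn1wt (log2, vertical axis) of the 8 Hoxa genes in cluster order, with 95% intervals from limma, other probe sets as triangles and up to 15 alternative settings as crosses. Hoxa5 lies at -1.81 with its second probe set at -1.07, Hoxa11 lies at 1.04, and the intervals of Hoxa3 and Hoxa4 include 0.

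**Figure D3:**
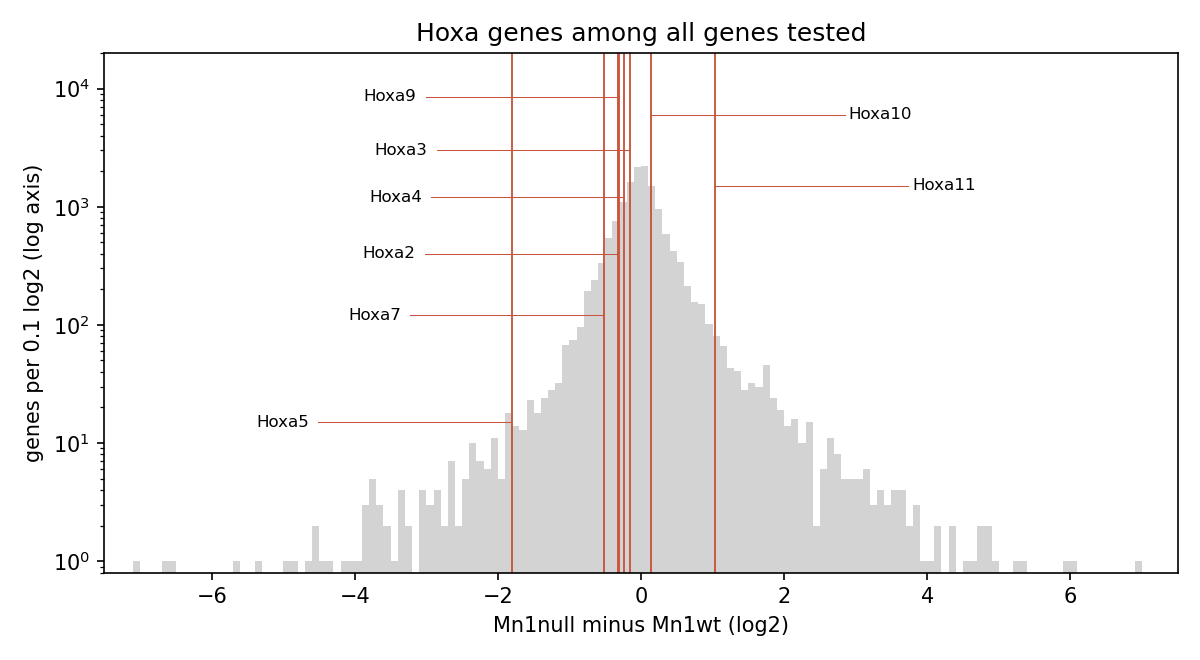
Histogram of the differences (log2, horizontal axis) of all 14677 genes tested, with the number of genes on a log axis and the 8 Hoxa genes as red lines. Most Hoxa genes lie in the body of the distribution, while Hoxa5 and Hoxa11 lie in the lower and upper tails.

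Members that follow each other in cluster order were compared within each array. They are called neighbouring here, though other genes may lie between them. The comparison asks whether they changed by unequal amounts and sets no level of one probe set against another. Of 7 neighbouring pairs, 5 did not overlap between the groups. The share over all pairs of genes was not computed, and the 57.7% given above is for single genes. Neighbouring pairs also share genes, so the count is a description only. The log2 difference Hoxa5 minus Hoxa7 went from 0.26 ± 0.076 to -1.02 ± 0.10 (SD, n = 3 each), a change of -1.29 (exact permutation test, 2-sided, p = 0.10; adjusted p = 0.14 over 7 pairs). The difference Hoxa4 minus Hoxa5 changed by 1.58, Hoxa7 minus Hoxa9 by -0.22, Hoxa9 minus Hoxa10 by -0.45 and Hoxa10 minus Hoxa11 by -0.89, each without overlap. With 3 arrays against 3 the smallest p of this test is 0.10, so no pair can pass 0.05. The pairs Hoxa2 and Hoxa3 (-0.17, exact permutation p = 0.20) and Hoxa3 and Hoxa4 (0.081, exact permutation p = 0.80) overlapped. In cluster order the single-gene differences were small at Hoxa2 to Hoxa4 and largest in fall at Hoxa5. Smaller falls followed at Hoxa7 and Hoxa9, then 0.15 at Hoxa10 and 1.04 at Hoxa11. Signals of Hoxa2 and Hoxa4 were low (Mn1wt means of 4.78 and 4.28), where RMA compresses differences. A fall of the size seen at Hoxa5 may not have been visible there.

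Outside the coding members, the last gene of the cluster with a probe set, Hoxa13, was not tested, since its mean over both groups lay under the filter level (3.98 in Mn1wt and 4.08 in Mn1null). Among 6 tested genes around the cluster 4 rose, 1 fell and 1 did not pass (83.3% called against 48.8% of all genes). Jazf1, which encodes a zinc finger cofactor, rose by 1.07 (limma adjusted p = 0.000237), from a mean of 4.32 in Mn1wt, near the filter level, to 5.38 in Mn1null. The sorting nexin gene Snx10 rose by 0.49 (limma adjusted p = 0.000114), with 0.13 on another Snx10 probe set that did not pass. Skap2, an adaptor protein gene, fell by 0.20 on the probe set used (adjusted p = 0.00671), while its other probe sets differed by 0.52 and 0.65, so its direction depends on the probe set. The same holds for Tax1bp1, counted among the 4 at 0.21, whose other probe sets gave -0.52 (adjusted p = 0.000776 over all probe sets), -0.22 and -0.0153.

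Among 8 HOX cofactor genes limma called 3 higher, 1 lower and 4 not at all, with a median of 0.10. The share called, 50%, was near the 48.8% of all genes. Pknox2, counted as not called (-0.0763), differed by -1.38 on its other probe set (adjusted p = 0.00049 over all probe sets). Pbx3, whose product pairs with HOXA9, had a mean of 7.94 ± 0.15 in Mn1wt and 10.31 ± 0.052 in Mn1null (SD, n = 3 each). Pbx3 thus rose by 2.37 (limma adjusted p = 1.6e-06), and by 2.32 on its second probe set. Pbx4 rose by 0.99 (adjusted p = 0.00109) and Meis1 by 0.24 (adjusted p = 0.00367), with 0.15 and -0.0235 on other Meis1 probe sets that did not pass. Pknox1, a MEIS-related gene, fell by 0.81 (adjusted p = 8.45e-05).

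In the other Hox clusters 24 genes had a probe set and 12 passed the filter. Of these 12, 4 fell and 8 were not called (33.3% called against 48.8% of all genes, median -0.0701). Those that fell were all of the Hoxb cluster, Hoxb2 by 3.33, Hoxb5 by 1.79, Hoxb4 by 1.54 and Hoxb3 by 0.55, with -2.63 on a second Hoxb3 probe set (limma adjusted p between 9.91e-06 and 0.00463 over genes). Hoxb5 is the paralogue of Hoxa5 in that cluster, and its Mn1null mean of 3.93 lay under the filter level.

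Regulators of the cluster were read as lists. Of 23 genes of MLL, its fusion partners and their complexes, limma called 7 higher, 4 lower and 12 not at all. The share called, 47.8%, was near the 48.8% of all genes, and the median was 0.012. Aff3, of the family fused to MLL in leukaemia, rose by 2.03 (limma adjusted p = 1.28e-06) and by 1.05 on its second probe set, and Mllt3, which gives the AF9 part of the fusion, rose by 0.88 (adjusted p = 0.000234). Whether the Mllt3 probe sets read the fusion transcript was not tested. Dot1l, the H3K79 methyltransferase recruited by MLL fusions, fell by 0.45 (adjusted p = 0.00353), while a second Dot1l probe set gave -0.20 (adjusted p = 0.0764). Rbbp5, a core MLL complex subunit, fell by 0.34 (adjusted p = 0.00127).

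Of 31 Polycomb genes and their antagonists, limma called 14 lower, 6 higher and 11 not at all. The share called was 64.5% against 48.8% of all genes, with a median of -0.051. Cbx6, a chromodomain subunit, fell by 0.94 (limma adjusted p = 3.6e-05) and Phf19, an accessory subunit, by 0.69 (adjusted p = 0.00143), with -0.16 on another Phf19 probe set (adjusted p = 0.244). The demethylase genes Kdm6b and Kdm6a, which remove the Polycomb mark, rose by 0.62 (adjusted p = 0.000736) and 0.33 (adjusted p = 0.00549), and other probe sets of both did not pass. Of 9 CDX, retinoid receptor and looping factor genes 1 was called higher, 4 lower and 4 not at all. The share called, 55.6%, was not far from the 48.8% of all genes. Rxra, a retinoid X receptor gene counted as not called (0.0951), differed by 0.76 on another probe set (adjusted p = 0.000447 over all probe sets). Rara, a retinoic acid receptor, rose by 0.28 (adjusted p = 0.017), and the insulator gene Ctcf fell by 0.41 (adjusted p = 0.00025). Rad21, a cohesin subunit gene, fell by 0.26 (adjusted p = 0.00954), while its other probe sets gave 0.0797 and -0.20 and did not pass.

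Genes often placed downstream of HOXA9 and MEIS1 moved both ways. With 23 tested, 11 were called higher, 6 lower and 6 not at all (73.9% called against 48.8% of all genes, median 0.13). The transcription factor gene Mef2c fell by 6.69 and Prdm16, a regulator of stem cells, by 2.05, while the stress-induced gene Ddit4 rose by 1.25 and the myeloid regulator Cebpa by 0.93 (limma adjusted p between 8.46e-09 and 8.5e-05).

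**Figure D4:**
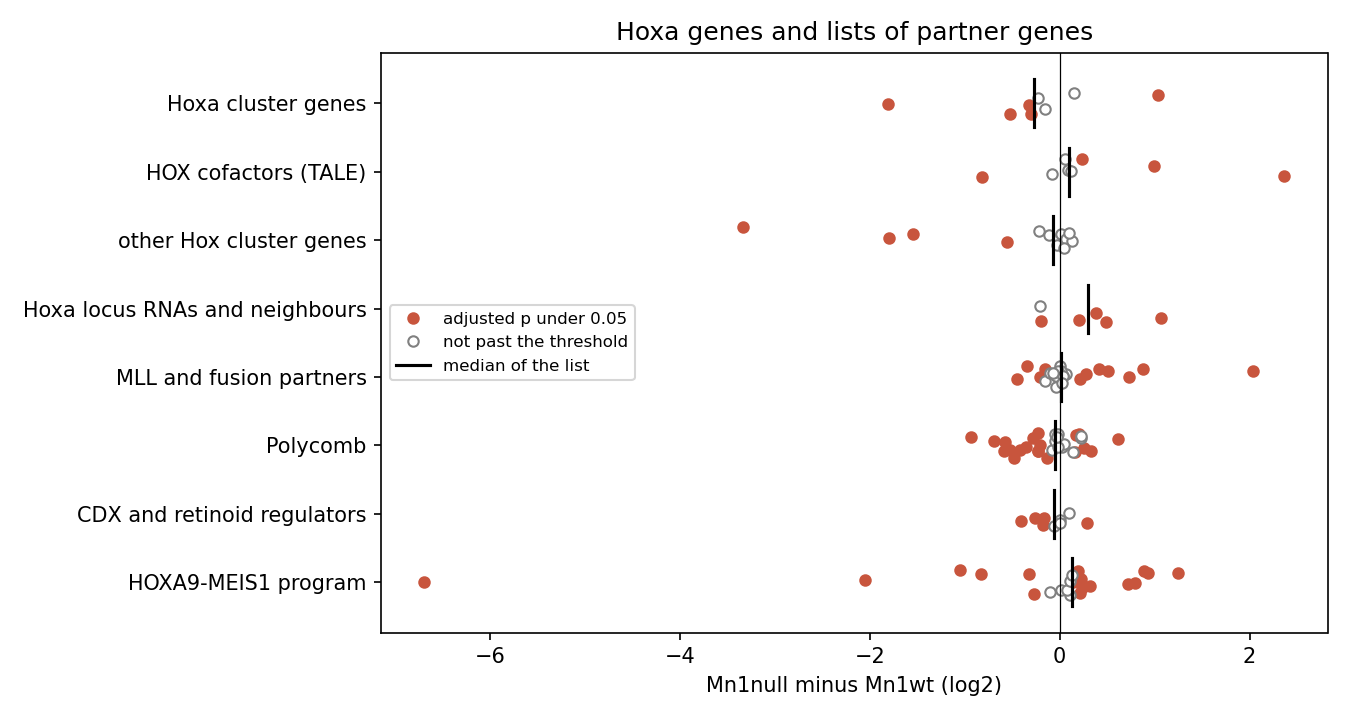
Differences of Mn1null minus Mn1wt (log2, horizontal axis) of the 8 Hoxa genes and of the tested genes of each partner list, filled where the adjusted p was under 0.05, with list medians as black bars and points spread vertically for clarity. Every list holds genes on both sides of 0, the Hoxa median lies at -0.27 and that of the cofactors at 0.10.

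Arrays of a group correlated at 0.997 to 0.998 over the genes tested, and arrays of different groups at 0.968 to 0.969. All 15 myeloid progenitor markers on the array had a mean over the 6 arrays above the overall median, as did 9 of the 12 mast cell and basophil markers. That median is over probe sets, and 11438 of the 18193 named genes reached it on their highest probe set. Of the 15 myeloid progenitor markers 7 rose, Fcgr3 by 1.87, and 6 fell, with Csf1r at -1.5 (86.7% called against 48.8% of all genes). Mn1 itself was read by 1 probe set near the filter level (4.35 and 4.13; limma adjusted p = 0.121), whose place relative to the deletion is unstated, so it checks nothing. Labelling control transcripts differed between the groups, by -0.85 at their 5′ end, -0.49 in the middle and -0.30 at the 3′ end, and their part in the Hoxa results was not tested.

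Markers of other cell types were also read. Of tested mast cell and basophil markers 72.7% were called, and of erythroid markers 62.5%, against 48.8% of all genes. Stromal and endothelial markers (33.3%) and B and T cell markers (22.2%) were called less often than all genes. In bulk samples fewer cells of a type and less RNA per cell cannot be told apart. Of 11 tested mast cell and basophil markers 7 rose and 1 fell, and the mean of the 12 on the array went from 7.41 to 7.44 in Mn1wt to 8.83 to 8.86 in Mn1null, with Hdc higher by 4.56 and Kit at -0.17. Of 8 tested erythroid markers 4 rose and 1 fell (means of 9 from 6.21 to 6.26 and from 6.72 to 6.80), with Gata1 higher by 1.76 and Tfrc at -0.14. Stromal and endothelial markers gave means of 5.02 to 5.09 and 5.32 to 5.33 over 18, with 3 of 12 tested higher and 1 lower. Thy1 rose by 2.34, Pecam1 rose by 1.78, Pdgfrb rose by 1.76 (6.42 on its second probe set) and Dcn fell by 0.27. Thy1 and Pecam1 already had means of 9.84 and 9.06 in Mn1wt. The other 8 tested were not called, and the median difference of the 12 tested was -0.0833. The higher mean of this list was thus not shared by most of its tested members. A further 6, Col3a1 among them, lay under the filter level. B and T cell markers gave 4.92 to 4.97 and 4.95 to 5.03 over 11, with 1 of 9 tested higher (Vpreb1, 0.81) and 1 lower (Cd79b, -0.91). The part of these markers in the Hoxa results was not tested.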

How the data were processed

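RNA of 6 samples, 3 per group as the titles number them, was hybridised to one-colour Affymetrix arrays from 3 microgram of total RNA. The authors deposited a log2 signal for every probe set, and the submitters' processing notes name RMA, without a version, as its source. RMA as a method equalises the distributions of the arrays, which hides overall shifts, and compresses low signals. Scanner files were not used here.

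Of 45101 probe sets, 64 controls were left out of the tests; 34945 of the others named 1 gene, 932 several and 9160 none. For each of 18193 genes the probe set of highest mean was used, and 3516 genes under the 30th percentile were left out. The contrast of Mn1null with Mn1wt was fitted in limma 3.58.1 (lmFit, eBayes; R 4.3.3) without a block, 2-sided, over genes and, unfiltered, over all 45037 probe sets, with Benjamini-Hochberg adjustment; every adjusted p of a gene or probe set comes from these fits. Only the limma fit over genes was run on simulated data, with independent normal noise. The choice of probe set, the filter, the permutation test and the motif counts were not. Same-numbered arrays did not deviate together (correlations -0.0395, 0.11 and 0.0805), so the numbers were not taken to pair them. Gene order and promoter sequences are from RefSeq (GRCm38.p6). All member probe sets are named, and from each partner list up to 2 genes per direction with the largest difference past the threshold, from marker lists those with the largest difference (genes of high mean were also chosen but their levels are not compared here); Meis1, Hoxb3, Hoxb4, Pknox2, Tax1bp1, Rxra, Pdgfrb and the second probe sets of listed genes were named after their values were seen. The members and lists were chosen with earlier results of these data known.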

Additional observations from a re-analysis of the deposited data

How the results depend on the processing

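Over 117 results of single Hoxa genes under up to 15 alternatives, 106 kept direction and side of the threshold, 6 lost a call (all of Hoxa2), 4 gained one (Hoxa4 and Hoxa10, 2 each) and 1 turned. Hoxa5 (-1.83 to -1.44), Hoxa7 (-0.55 to -0.49), Hoxa9 (-0.32 to -0.26) and Hoxa11 (0.91 to 1.13) passed under all 15. For Hoxa7 and Hoxa11, with 1 probe set each, the mean of all probe sets used the same values as the main fit. Hoxa11 passed the filter at the 50th percentile (5.21) through its Mn1null mean of 5.87, its Mn1wt mean being 4.83. Under a filter at the 50th percentile Hoxa2 and Hoxa4 were not tested, and under the mean of all probe sets Hoxa4 was not. The count of Hoxa genes that rose was 2 with an intensity trend and robust variances, and 1 to 2 when single arrays were left out; the count that fell was 3 to 4. With the replicate block Hoxa2 lost its call (adjusted p = 0.0638) and Hoxa4 gained one (0.0291), 4 genes fell and 1 rose, and 6943 genes in all were called against 7169; the second Hoxa9 probe set lost its call (0.0593). Leaving out single arrays, the difference of Hoxa3 ran from -0.26 to 0.0071, that of its probe set 1431392_at from -0.0539 to 0.0763 (0.0205 with array weights), of 1429398_at from -0.11 to 0.0364 and of the Hoxa10 probe set 1446408_at from -0.0427 to 0.0853. Hoxa3 minus Hoxa4 changed by -0.0964 to 0.28 in the same way. The causes were not tested. Precision is limited by having 3 arrays a group, and low signals limit what Hoxa2, Hoxa4 and, in Mn1wt, Hoxa11 can show.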
